A study of Mus musculus with 15 samples.

Results

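Bone marrow plasma cells (BMPC, 3 libraries) were compared with spleen plasma cells of the same surface phenotype, B220-2NBDG+ (3 libraries), so that 6 of the 15 RNA-seq libraries of the series enter the contrast and the 9 libraries of 3 further spleen subsets serve as a reference for its spread. The mice were male C57Bl6/N, 8 to 12 weeks old, and neither immunised nor treated. Each group had 3 biological replicates, and about 30000 cells per subset were sorted in 2 rounds. Cells of both groups had high CD138 and were negative for Ly6g, CD11c and B220. They were also positive for 2NBDG, a fluorescent glucose analogue that marks glucose uptake. Values are transcripts per 1000000 (TPM) summed per gene, with the 262 genes of the immunoglobulin loci set aside and the remainder rescaled to 1000000 per library. The libraries held 17295292 to 24838538 estimated reads, of which 4402980 to 6437566 in the 6 libraries compared lay outside the immunoglobulin genes. Immunoglobulin genes took 96.3%, 96.3% and 96.6% of deposited TPM in the spleen libraries and 94.9%, 95.3% and 96.3% in BMPC.

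Plasma cells are the antibody-secreting end stage of the B lineage. Most are made in spleen and lymph nodes, and some home to bone marrow, where stromal cells and myeloid cells provide CXCL12, APRIL and CD80/CD86 ligands that keep long-lived plasma cells alive through CXCR4, BCMA and CD28. Secretion of antibody puts a heavy demand on amino acid supply, on protein folding in the endoplasmic reticulum (ER) and on glucose for glycosylation.

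Sdc1 and Jchain, which mark plasma cells, were abundant in both groups and were not called different. Sdc1, which encodes CD138, measured 169, 89.5 and 59.3 TPM in the 3 spleen libraries and 59.5, 96.4 and 125 TPM in the 3 BMPC libraries. Jchain, which encodes the joining chain of secreted IgA and IgM, was at 84898, 80689 and 76026 TPM in spleen and 124923, 86131 and 94448 TPM in BMPC. The groups overlapped for Sdc1 and not for Jchain, and the adjusted p (limma, Benjamini-Hochberg) was 0.92 for Sdc1 and 0.31 for Jchain. Ptprc, the gene of CD45 whose B220 form was gated out, was present at 142, 130.5 and 131 TPM in spleen and 59.7, 93.5 and 116 TPM in BMPC. A total over all forms of Ptprc does not measure B220.

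Markers of other marrow cells were higher in the BMPC libraries, and their part in the low genes called higher there was not tested. Of 58 neutrophil markers tested, 25 rose in BMPC and 0 fell, with a median log2 fold change of 2.11. Summed without Slpi, an antiprotease that was high in every library, neutrophil markers took 0.0603%, 0.0994% and 0.157% of TPM in spleen and 0.843%, 0.907% and 1.34% in BMPC. The granule protein gene Ltf read 22.6, 7.87 and 26.9 TPM in spleen against 2134, 2517 and 3599.9 TPM in BMPC. Camp, an antimicrobial peptide gene, read 2.42, 1.84 and 4.92 against 278, 372 and 553 TPM, and the granule protease gene Elane 7.82, 1.09 and 8.42 against 101, 194 and 358 TPM; both were picked after their values were seen. The spleen and BMPC libraries of these 3 genes were far apart. Ly6g, whose protein was gated out in the sort, was itself higher, from 0.596, 1.36 and 0.264 TPM to 15.04, 4.61 and 10.6 TPM (log2 fold change 2.59 ± 0.39 (SE), adjusted p = 0.0032). Over the 6 libraries 69.0% of Ly6g TPM stood on a transcript with an effective length of 87.03 nt, listed at 0 in each spleen library, and on shares of estimated reads (TPM multiplied by effective length) the log2 fold change was 1.43 (adjusted p = 0.0070). For Ltf 60.9% of TPM stood on a transcript with an effective length of 15.5 nt, which raises its TPM. Its log2 fold change was 7.22 on rescaled TPM and 6.17 on shares of estimated reads. BMPC 3 was the highest BMPC library for 22 of the 25 called neutrophil genes, with a median ratio to BMPC 1 of 1.69.

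Markers of early B cell precursors, which mature in bone marrow, were a smaller part of this signal. Of 7 tested, 4 were called higher (Igll1, Vpreb1, Vpreb2 and Dntt). Igll1, which encodes the surrogate light chain lambda5, was at 0, 0 and 1.63 TPM in spleen and 36.7, 46.9 and 9.94 TPM in BMPC (log2 fold change 4.29 ± 0.54, adjusted p = 0.00094). Dntt, the terminal transferase that adds bases at V(D)J joints, was at 0.151, 0 and 0 TPM and 5.98, 6.57 and 3.33 TPM. In both genes BMPC 3 was the lowest of the marrow libraries, the reverse of the neutrophil genes. NK cell markers gave 1 call among 7 tested (Il2rb) and summed to 32.3, 30.01 and 22.2 TPM in spleen and 101, 97.3 and 84.3 TPM in BMPC. These marrow sums lay within the 38.3 to 195 TPM of the other spleen subsets, where Il2rb spanned 8.01 to 56.5 TPM. T cell markers gave 1 call in 15 (Cd4, 1.101, 2.89 and 4.54 against 9.699, 7.06 and 22.6 TPM), with sums of 50.1, 86.9 and 48.3 TPM and 56.7, 75.6 and 67.9 TPM. No gene was called on the lists of monocytes, macrophages and dendritic cells (27 tested), the erythroid lineage (14), megakaryocytes (4), granulocytes of the mast cell, basophil and eosinophil lines (6), or stroma and endothelium (3). At an unadjusted p under 0.05 (limma) these lists held 3, 1, 0, 2 and 1 genes in that order. Over all 11246 genes tested, 1893 were under that p. On the median-of-ratios scale 1 gene of these lists was called, F13a1 of the first list (higher). Haemoglobin and other erythroid genes were high in 1 spleen library, with sums of 167, 147 and 4934 TPM in spleen and 607, 1077 and 334 TPM in BMPC.

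Among 11246 genes tested, 216 (1.92%) passed an adjusted p of 0.05 in limma, 116 higher in BMPC (1.03%) and 100 lower (0.889%). The 3 BMPC and 3 spleen libraries of all 216 did not overlap, a property shared by 23.7% of all genes tested (4.62% higher and 19.1% lower in BMPC). BMPC lay beyond all 12 spleen libraries in 8.18% of genes, above them in 1.45% and below them in 6.73%, and this held for 81 of the 116 higher and 67 of the 100 lower genes. The median log2 fold change of all genes was -0.18, so changes measured against the bulk of genes are 0.18 more positive than the values printed. Jchain, Slpi and mt-Atp8 together took 17.0%, 16.4% and 16.6% of TPM in spleen and 24.6%, 20.3% and 20.7% in BMPC. The part of mt-Atp8 rests on an effective length of 10.4 nt, at which few reads give a high TPM. Scaling by the median of ratios moved that all-gene median to 0.01 and the split to 183 higher (1.63%) and 33 lower (0.293%). All 116 higher genes and 33 of the 100 lower genes were also called on that scale. The calls also depend on the shared spread of the 15 libraries: the 6 libraries alone gave 53. Without 1 library at a time the higher genes numbered 67 (spleen replicate 1), 74 (BMPC 2), 75 (spleen replicate 2) or more, and the lower genes 182 without BMPC 3 and 21 to 49 without any other library. Of the 116 higher genes, 31 stood on a list of other cell types and 85 did not, and 69 of those 85 averaged under 5 TPM in spleen.

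**Figure D1:**
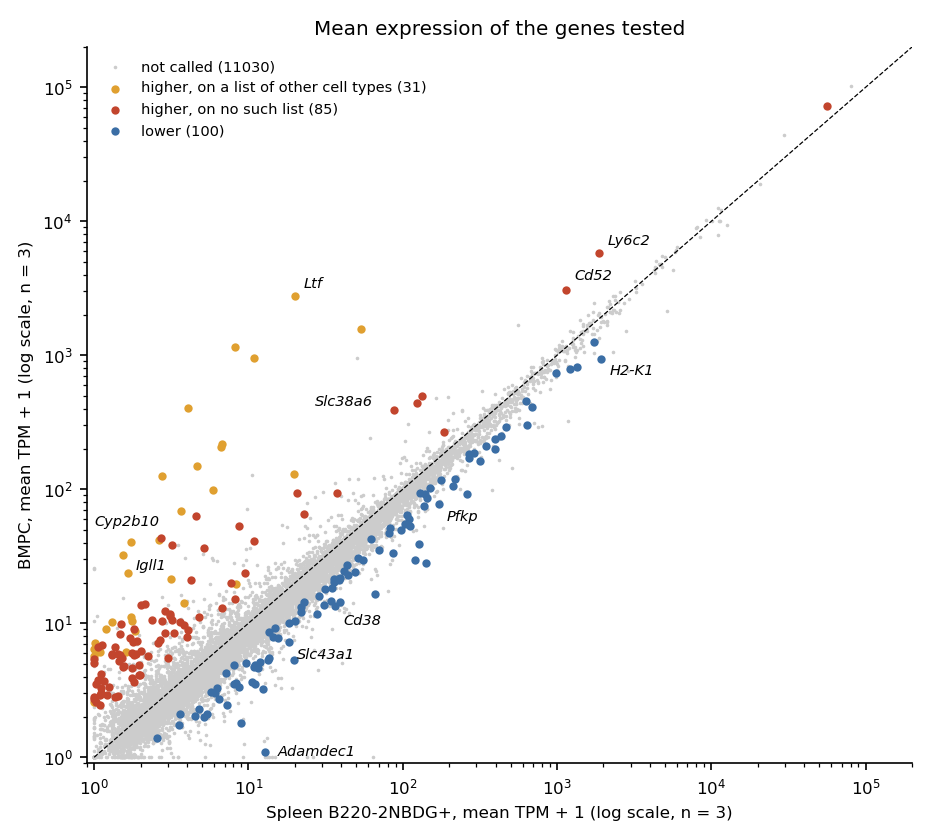
Mean TPM + 1 of each of the 11246 genes tested in spleen B220-2NBDG+ (x axis) and BMPC (y axis), both on log scales, 3 libraries each, with the 116 genes called higher and the 100 called lower in colour and the dashed line at equal values. The 31 higher genes on lists of other cell types (orange) lie mostly far above the line at low spleen values, while Cd52 and Ly6c2 rose from spleen means of 1143 and 1870.3 TPM.

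Among the higher genes that were abundant in spleen as well were those of 2 surface proteins. Cd52 (chr4:134082448-134095082, GRCm38) encodes a short GPI-anchored glycoprotein of lymphocytes. It read 1193, 1229.5 and 1007 TPM in spleen and 2558, 3709 and 2926 TPM in BMPC, a log2 fold change of 1.41 ± 0.16 (SE; adjusted p = 0.00047, limma with Benjamini-Hochberg). Every marrow library exceeded every B220-2NBDG+ library, but the 9 libraries of the other spleen subsets, at 2475 to 7162 TPM, spanned the marrow values. Ly6c2, which encodes the GPI-anchored antigen Ly6C, read 2185, 1342 and 2084 TPM in spleen and 4013, 7247 and 6112 TPM in BMPC (1.62 ± 0.35, adjusted p = 0.031). In contrast to Cd52, its marrow libraries lay above all 12 spleen libraries, the other subsets spanning 474 to 1769 TPM. Reads of Ly6c2 can be shared with the near-identical Ly6c1. Ly6C is also carried by monocytes and neutrophils; summed monocyte, macrophage and dendritic cell markers were 1793, 2391 and 2928 TPM in spleen and 1836, 1620.2 and 2243 TPM in BMPC, and the part of either cell type in the Ly6c2 signal was not tested. Cd52 was called in all 6 fits that left out 1 library and Ly6c2 in 1, that without BMPC 1. These were the 2 members of the list of Ly6 proteins and immune checkpoints that were called, of 23 tested.

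A second set of genes differed most by library within the marrow, with BMPC 2 high and BMPC 1 low. Slc38a6 (chr12:73286779-73354049), of the SLC38 family of amino acid transporters, read 94.4, 82.5 and 82.1 TPM in spleen and 126, 751 and 294 TPM in BMPC (1.81 ± 0.42, adjusted p = 0.047). Sirt5 (chr13:43365496-43395203), a mitochondrial lysine desuccinylase, read 137, 130.4 and 129 TPM and 199, 935 and 352 TPM (1.60 ± 0.37, adjusted p = 0.045). Both genes thus moved by the same order of libraries, from just above spleen in BMPC 1 to several times the spleen level in BMPC 2. Their leading transcripts shared the pattern: that of Slc38a6 was at 45.7, 47.2 and 51.3 TPM in spleen and 90.9, 491 and 181 TPM in BMPC, and that of Sirt5 at 117, 107 and 92.6 TPM against 174, 744 and 268 TPM. Without BMPC 2 the log2 fold change was 1.15 for Slc38a6 (not called) and 1.00 for Sirt5 (called).

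Csn3, the gene of the milk protein kappa-casein, was at 7.57, 6.68 and 8.65 TPM in spleen and 15.7, 83.3 and 57.2 TPM in BMPC (2.34 ± 0.52, adjusted p = 0.037). Colca2 was at 10.2, 7.36 and 12.1 TPM and 15.1, 57.9 and 46.9 TPM (1.74 ± 0.37, adjusted p = 0.029). Cyp2b10 (chr7:25897620-25926624), a cytochrome P450 best known as a xenobiotic-induced liver enzyme, was at 2.09, 1.02 and 2.03 TPM and 14.1, 67.4 and 44.4 TPM. It had the largest rise among the named genes on no list of other cells (3.76 ± 0.40, adjusted p = 0.00027), and the call held in all 6 fits that left out 1 library. Reads of Cyp2b10 may be shared with other members of its gene family. For these 3 genes the B220-2NBDG+ group also stood highest among the spleen subsets. In the B220+2NBDG-, the B220-2NBDG- and then the B220+2NBDG+ cells the mean TPM was 3.22, 4.49 and 4.15 for Csn3, 2.78, 5.72 and 5.84 for Colca2 and 0.0170, 0.360 and 0.411 for Cyp2b10. The order of the spleen subsets was not tested here. Bglap3, of the osteocalcin cluster, rose from 3.598, 2.17 and 4.05 TPM to 8.38, 34.3 and 17.2 TPM (2.12 ± 0.39), and its reads can be shared with Bglap and Bglap2. Fgf21, a hormone of the fasting and stress response, rose from 2.15, 2.48 and 1.68 TPM to 4.56, 12.6 and 15.04 TPM (1.79 ± 0.36). BMPC 1 had the lowest marrow value of all 5 genes. Without BMPC 2 the log2 fold changes were 1.86 for Csn3, 1.38 for Colca2 and 1.61 for Fgf21, none of them called, and 3.30 for Cyp2b10 and 1.64 for Bglap3, both called.

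**Figure D2:**
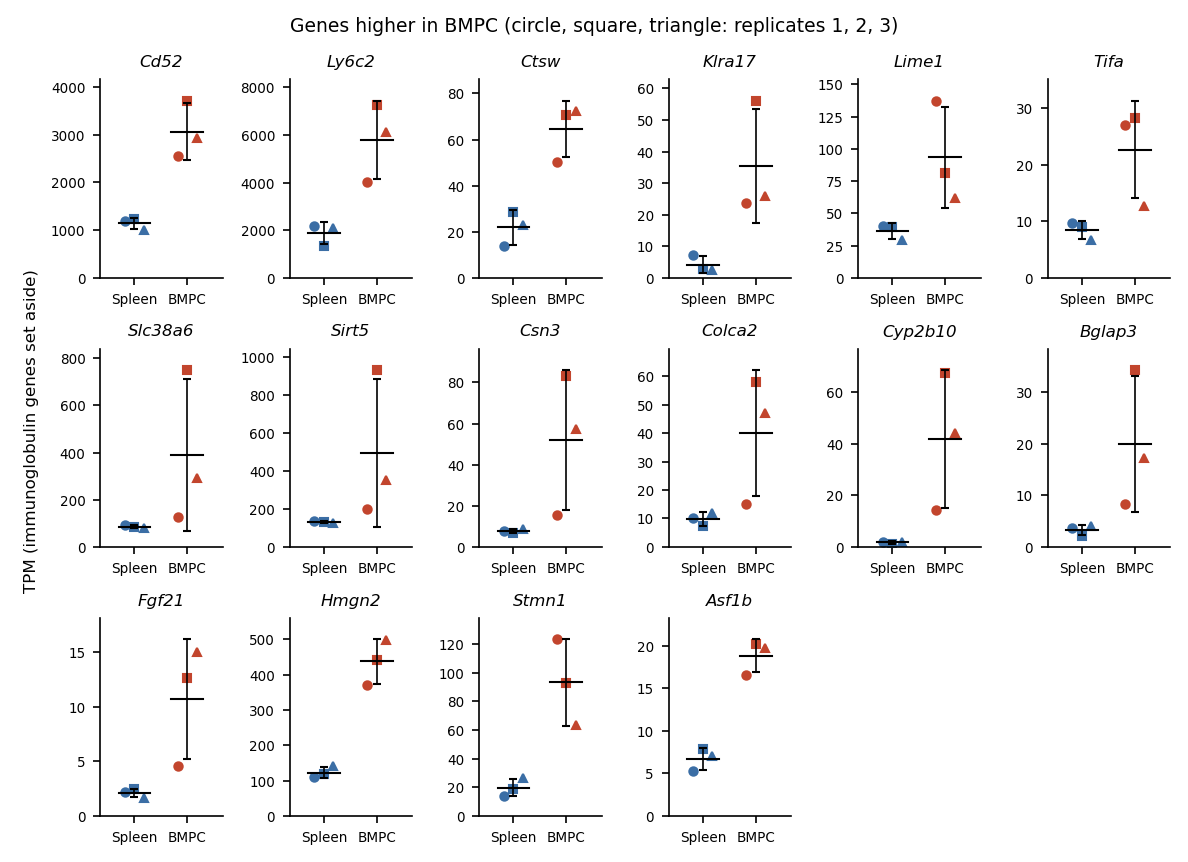
TPM in the 3 spleen B220-2NBDG+ libraries (blue) and the 3 BMPC libraries (red) for 16 genes called higher, each panel from 0 with its own scale, black lines showing mean and SD. BMPC replicate 2 (square) stands far above replicates 1 and 3 for Slc38a6 and Sirt5, whereas the marrow values of Cd52, Ctsw, Hmgn2 and Asf1b lie close together.

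Across the 79 called higher genes on no list of other cells or of the cell cycle, the highest marrow library was BMPC 1 for 21, BMPC 2 for 35 and BMPC 3 for 23. Of the 15 of these with at least 5 TPM in spleen, BMPC 2 was highest for 11. This differs in pattern from the neutrophil genes (0 of 25 highest in BMPC 2) and is given as a description of 3 libraries.

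**Figure D3:**
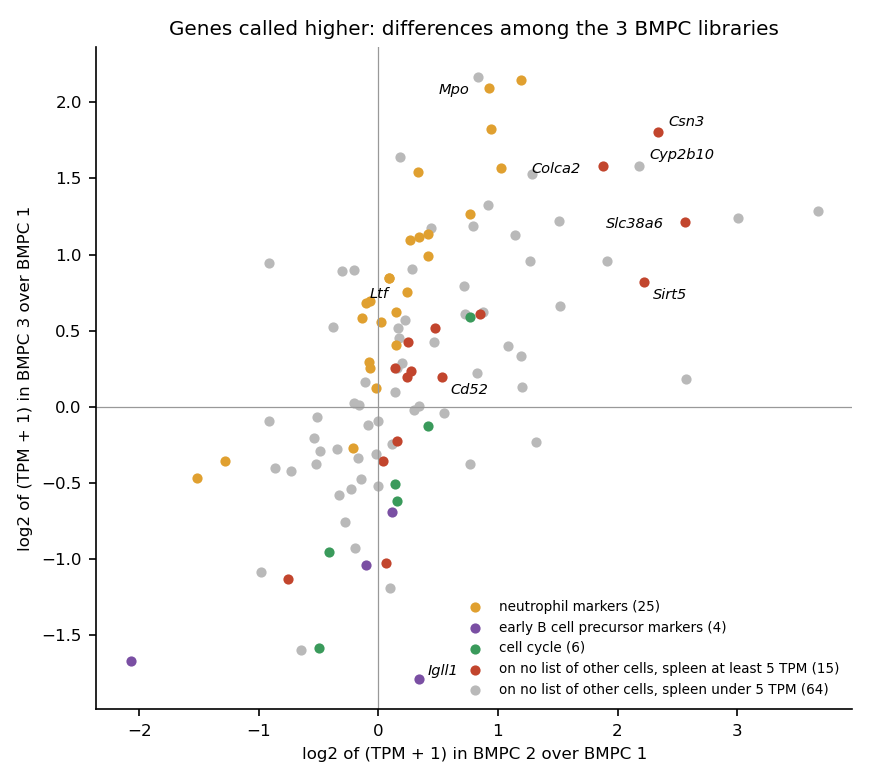
Each point is 1 of the genes called higher, placed by the log2 ratio of (TPM + 1) in BMPC 2 over BMPC 1 (x axis) and BMPC 3 over BMPC 1 (y axis), and coloured by list; 114 of the 116 genes are shown, leaving out Cd4 and Il2rb. Neutrophil markers lie above 0 on the y axis for 22 of 25 genes, early B cell precursor markers lie below it, and Csn3, Colca2, Slc38a6, Sirt5 and Cyp2b10 lie to the upper right.

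Among the remaining higher genes, Ctsw is known from cytotoxic cells and Lime1 from lymphocyte signalling. Ctsw, the protease cathepsin W of NK cells and cytotoxic T cells, read 13.8, 28.8 and 23.1 TPM in spleen and 50.4, 70.7 and 72.6 TPM in BMPC (1.56 ± 0.26, adjusted p = 0.0075). Beside it, the NK cell genes Prf1 (perforin) and Nkg7 were at 10.9, 9.59 and 5.31 TPM and 5.64, 4.67 and 4.05 TPM in spleen and 53.1, 35.6 and 15.4 TPM and 15.5, 25.1 and 48.7 TPM in BMPC, with adjusted p of 0.051 and 0.11. All 3 genes were higher in each marrow library than in each B220-2NBDG+ library. In the other spleen subsets Ctsw spanned 2.56 to 12.8 TPM, Prf1 8.90 to 41.8 TPM and Nkg7 3.14 to 87.7 TPM. Only Ctsw thus lay above all 12 spleen libraries, and how far NK cell RNA accounts for Ctsw was not tested. Klra17, of the Ly49 receptor family, read 7.27, 2.85 and 2.35 TPM and 23.8, 56.1 and 26.1 TPM (2.83 ± 0.43, adjusted p = 0.0034, limma). Its reads may be shared with other Ly49 genes, and its cell of origin was not tested. Lime1, a membrane adaptor of lymphocyte antigen receptor signalling, read 40.2, 39.8 and 29.4 TPM and 137, 80.96 and 62.1 TPM (1.27). Its level in the other spleen subsets ran from 38.1 to 111 TPM. Tifa, an adaptor that joins TRAF6 to NF-kappaB activation, read 9.67, 9.05 and 6.74 TPM and 26.97, 28.3 and 12.8 TPM (1.25). Lime1 and Tifa kept their call in 1 of the 6 fits without a library, Ctsw and Klra17 in all 6.

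The other genes that rose from under 5 TPM included Chil1, a chitinase-like glycoprotein also found in neutrophil granules, at 0.407, 0.399 and 2.19 TPM in spleen and 15.6, 10.6 and 11.8 TPM in BMPC (2.87 ± 0.42, adjusted p = 0.0029). Prss57, a serine protease of neutrophil granules, was at 1.51, 2.88 and 1.198 TPM and 9.09, 7.18 and 17.7 TPM, and Rnase4, a secreted ribonuclease, at 1.62, 2.22 and 2.42 TPM and 11.7, 7.902 and 11.1 TPM. Gcsam, the gene of a germinal centre B cell signalling protein, was at 1.15, 1.65 and 0.572 TPM and 20.3, 12.6 and 6.04 TPM (2.61 ± 0.44, adjusted p = 0.0075). These levels are below those of Ltf, Camp and Elane given above, and their cell of origin was not tested. Gcsam was highest in BMPC 1 and Prss57 in BMPC 3. Without 1 library, Chil1, Rnase4 and Gcsam were called in all 6 fits and Prss57 in 0.

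Genes of the cell cycle were the plasma cell list with the largest positive median, 0.68 over 44 genes tested. In all, 6 of the 44 were called higher (Top2a, Ccnb2, Cdkn3, Cenpf, Esco2 and Stmn1), 12 on the median-of-ratios scale, and 0 lower. Top2a, a topoisomerase of dividing cells, read 3.28, 3.02 and 4.98 TPM in spleen and 9.27, 12.7 and 8.43 TPM in BMPC (1.23 ± 0.29, adjusted p = 0.047). Ccnb2, a mitotic cyclin, read 1.39, 3.14 and 2.07 TPM and 10.5, 11.8 and 6.48 TPM (1.73 ± 0.27, adjusted p = 0.0040). Stmn1, a tubulin-binding protein, read 14.00, 19.1 and 26.2 TPM and 124, 92.6 and 63.2 TPM (2.17 ± 0.32, adjusted p = 0.0027). The summed list was 343, 351 and 402 TPM in spleen B220-2NBDG+ and 605, 628 and 538 TPM in BMPC, against 736 to 2853 TPM in the 9 libraries of the other spleen subsets. The marrow libraries thus lay above B220-2NBDG+ and below each other spleen library. Hmgn2, a nucleosome-binding protein outside the list, stood at 109.9, 118 and 140.1 TPM in spleen and 371, 441 and 499 TPM in BMPC, within the 245 to 848 TPM of the other subsets (1.82 ± 0.19, adjusted p = 0.00027). Asf1b, a histone chaperone of S phase, was at 5.25, 7.84 and 6.99 TPM and 16.6, 20.2 and 19.7 TPM, the other subsets spanning 12.2 to 66.3 TPM (1.38 ± 0.28, adjusted p = 0.023). Ccnb2, Stmn1 and Hmgn2 were called in all 6 fits without a library, Asf1b in 2 and Top2a in 0. No called cell cycle gene of the list was highest in BMPC 3, as for the early B cell precursor markers, and the part of dividing precursors was not tested.

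The 100 genes called lower had a median log2 fold change of -0.92. Cd38 (chr5:43868553-43912375), an NAD-consuming surface enzyme of plasma cells, had closely spaced replicates: 35.7, 36.05 and 35.1 TPM in spleen against 11.4, 11.7 and 14.2 TPM in BMPC, a log2 fold change of -1.45 ± 0.17 (SE; adjusted p = 0.00043, limma with Benjamini-Hochberg). Its 3 marrow libraries lay under all 12 spleen libraries, the other 9 of which spanned 41.1 to 76.4 TPM. Rcn3, a calcium-binding chaperone of the ER lumen, fell from 155, 103 and 118 TPM to 34.8, 45.2 and 34.2 TPM (-1.69 ± 0.24, adjusted p = 0.0018). Slc43a1 (chr2:84838850-84863594), the L-type transporter LAT3 for large neutral amino acids, fell from 16.4, 16.7 and 18.9 TPM to 5.52, 5.35 and 7.76 TPM (-1.36 ± 0.18, adjusted p = 0.0015). These 3 genes were called in all 6 fits without a library and on the median-of-ratios scale. In all, 10 of the 100 lower genes were called in every one of those 6 fits, against 62 of the 116 higher genes. For bulk RNA, fewer cells that express a gene and less RNA of it per cell cannot be told apart.

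The other lower genes chosen by size included genes of signalling, trafficking and metabolism. Adamdec1, a secreted metalloprotease known from gut and tissue macrophages, was at 3.68, 13.3 and 18.4 TPM in spleen and 0.0486, 0 and 0.237 TPM in BMPC (-3.32 ± 0.71, adjusted p = 0.031). Rgs1, a GTPase activator that dampens chemokine receptor signals, was at 5.13, 12.7 and 16.6 TPM and 2.67, 2.98 and 1.08 TPM (-1.87 ± 0.40, adjusted p = 0.034). Both genes varied over 3-fold among the spleen libraries. Summed monocyte, macrophage and dendritic cell markers were 1793, 2391 and 2928 TPM in the same spleen libraries and 1836, 1620.2 and 2243 TPM in BMPC. The cell of origin of Adamdec1 was not tested. Scimp, a transmembrane adaptor of antigen-presenting cells, fell from 36.5, 29.9 and 33.2 to 8.63, 18.5 and 13.6 TPM (-1.28), and Dgkg, a diacylglycerol kinase, from 12.7, 12.1 and 12.8 to 1.91, 2.84 and 8.71 TPM (-1.51). Josd2, a deubiquitinase, fell from 42.5, 39.6 and 33.3 to 13.2, 11.4 and 15.8 TPM (-1.45). Snx11, a sorting nexin of endosomes, fell from 9.34, 14.1 and 9.27 to 2.902, 5.61 and 3.98 TPM (-1.22), and Frmpd2, a scaffold protein, from 9.14, 9.901 and 12.8 to 1.71, 2.56 and 6.72 TPM (-1.45). On the median-of-ratios scale Adamdec1, Dgkg, Frmpd2 and Snx11 were still called, and Rgs1, Scimp and Josd2 were not, with adjusted p of 0.069, 0.054 and 0.076. On shares of estimated reads Snx11 (-0.77, adjusted p = 0.12) and Josd2 (-0.69, adjusted p = 0.31) were not called, and Adamdec1 moved to -4.54; 53.7% of Josd2 TPM over the 6 libraries stood on a transcript with an effective length of 66.3 nt. Without 1 library Snx11 was called in 4 of 6 fits, Adamdec1 in 2, and the other 5 in 1 fit each.

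**Figure D4:**
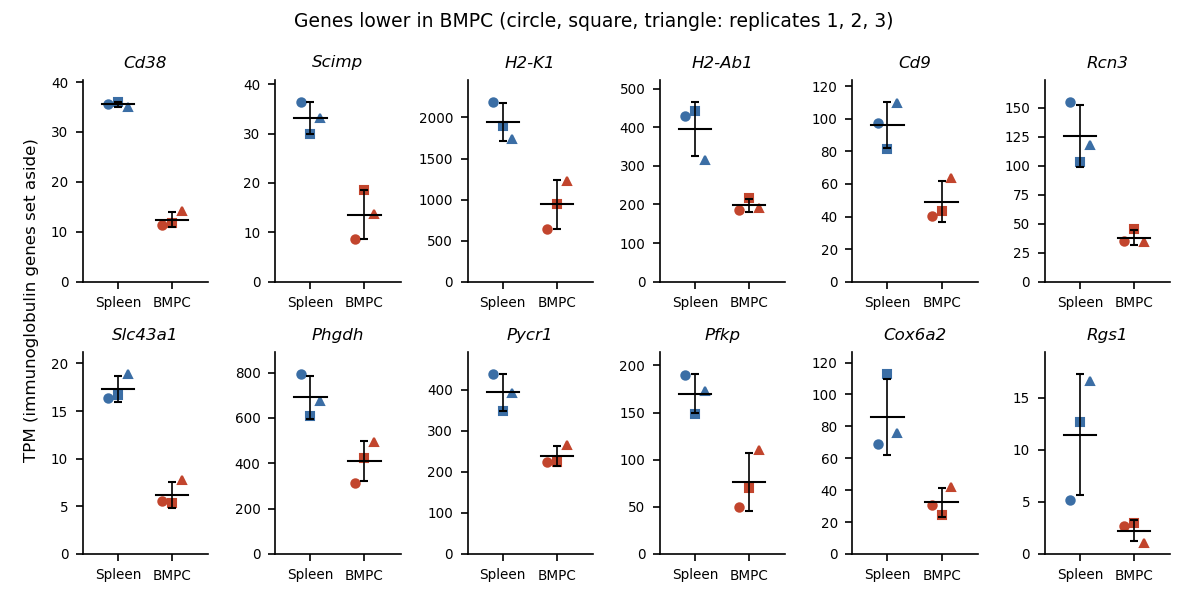
TPM in the 3 spleen B220-2NBDG+ libraries (blue) and the 3 BMPC libraries (red) for 12 genes called lower, each panel from 0 with its own scale, black lines showing mean and SD. The libraries of the groups do not overlap in any panel, and the replicates of Cd38 lie close together within each group.

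Amino acid supply was the plasma cell list with the most lower calls. Of 28 genes for amino acid transport and targets of the stress factor ATF4, 4 fell (Slc43a1, Trib3, Phgdh and Pycr1) and 0 rose, with a list median of -0.60 against -0.18 for all genes; on the median-of-ratios scale Slc43a1 and Trib3 were called and the median was -0.40. Phgdh, the first enzyme of serine synthesis, was at 794, 608 and 672 TPM in spleen and 315, 421 and 494 TPM in BMPC (-0.77 ± 0.16, adjusted p = 0.025). Pycr1, which makes proline and was named after its values were seen, was at 439, 349 and 393 TPM and 223, 225 and 266 TPM (-0.72 ± 0.14, adjusted p = 0.019). Trib3, a pseudokinase that feeds back on ATF4, was at 5.47, 4.53 and 2.49 TPM and 1.02, 1.01 and 0.974 TPM (-1.32 ± 0.26, adjusted p = 0.019). The groups of these 3 genes did not overlap, and in Phgdh BMPC 1 was the lowest library. Each of the 3 was called in 2 of the 6 fits without a library.

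The member of that list with the highest TPM was Slc3a2, the shared heavy chain of several amino acid transporters. It read 6694, 4455 and 4263 TPM in spleen and 1261, 2029 and 3116 TPM in BMPC. Its libraries did not overlap either, but its spread was wide and it was not called (log2 fold change -1.33 ± 0.41, adjusted p = 0.13). Over the 6 libraries 62.2% of Slc3a2 TPM stood on a transcript with an effective length of 17.1 nt, which raises its TPM for a given number of reads. On shares of estimated reads the log2 fold change of Slc3a2 was -1.13 (adjusted p = 0.095, limma). Asns, asparagine synthetase, read 613, 545 and 528 TPM and 321, 399 and 459 TPM (adjusted p = 0.12). Atf4 itself, which stands on the list of the unfolded protein response, read 169, 139 and 134 TPM and 71.1, 88.2 and 106 TPM (adjusted p = 0.089). These 3 genes were also picked after their values were seen. The summed list was 9695, 6783 and 6816 TPM in spleen and 2632, 3779 and 5188 TPM in BMPC, with spleen replicate 1 highest and BMPC 1 lowest. Slc3a2 is a large part of this sum, which therefore also depends on that short effective length. The other spleen subsets spanned 2049 to 6460 TPM, so the marrow libraries lay within the spleen range as a whole.

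ATF4 binds with C/EBP partners at a composite element, and the promoters of the called genes were searched for it. The letters TGATGNAA were looked for on both strands in RefSeq windows of 300 bases (GRCm38.p6), from 250 before to 50 after the gene start. They occurred in 3.97% of 32851 windows. Of the 23 genes of the list that had a window, 7 held a match in any of their windows. Among them were Pycr1 and Trib3 of the 4 that fell. The first share counts windows and the second counts genes, on a list chosen to hold ATF4 targets. The 2 shares are therefore not a like comparison. The stretches around these 2 matches are shown because they hold the only matches among the called members; capitals mark the match, which in Trib3 is on the opposite strand. The Pycr1 stretch is chr11:120643814-120643881 and the Trib3 stretch chr2:152344011-152344076, both read 5′ to 3′ on the minus strand of the genome.
Pycr1: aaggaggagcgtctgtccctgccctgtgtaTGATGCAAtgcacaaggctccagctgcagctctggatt
Trib3: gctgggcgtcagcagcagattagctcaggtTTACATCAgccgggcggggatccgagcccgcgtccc
Asns, which was not called, also held a match, so that a match did not separate called from uncalled members.

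Glucose uptake was a sorting criterion for both groups, and glycolysis showed a divided picture. Of 25 genes tested, the 2 that were called both fell and both encode phosphofructokinase, the committed step of glycolysis. Pfkp (chr13:6579768-6648777), the platelet isoform, read 189, 148 and 173 TPM in spleen and 49.6, 69.5 and 109.9 TPM in BMPC (-1.21 ± 0.24, adjusted p = 0.019), below all 12 spleen libraries. Pfkl, the liver isoform, read 37.2, 41.5 and 33.9 TPM and 17.5, 19.9 and 22.3 TPM (-0.88 ± 0.20, adjusted p = 0.039). These marrow values of Pfkl lay within the 15.2 to 41.1 TPM of the other spleen subsets. The list as a whole had a median of 0.22, with 21 of 25 genes above the all-gene median, and on the median-of-ratios scale 2 genes were called higher (Gpi1 and Ldhb, named for that call) and 1 lower (Pfkp). Without 1 library Pfkp was called in 2 of 6 fits and Pfkl in 1. All 4 leading transcripts of Pfkp were lower in marrow, the full-length one standing at 50.04, 42.0 and 51.0 TPM in spleen and 14.7, 22.9 and 29.04 TPM in BMPC.

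Respiratory genes gave 1 call in 46, Cox6a2, the muscle-type subunit of cytochrome c oxidase, at 68.9, 113 and 75.6 TPM in spleen and 30.7, 24.4 and 41.8 TPM in BMPC (-1.38 ± 0.29, adjusted p = 0.029). Its level also varied between the other spleen subsets, from 14.1 to 111 TPM over their libraries. Of the 13 mitochondrially encoded genes, 1 was called, mt-Atp8, which rose from 57765, 58879 and 53013 TPM to 73503, 81729 and 62921 TPM (0.36 ± 0.08, adjusted p = 0.046). Its effective length was 10.4 nt, so its TPM is high for its number of reads. Oxidative stress defence gave 2 higher calls in 29. Prdx5, a mitochondrial and peroxisomal peroxiredoxin, rose from 186, 177 and 186 TPM to 243, 268 and 290.5 TPM (0.54 ± 0.10, adjusted p = 0.019), above all 12 spleen libraries. Mt3, a metallothionein, rose from 1.43, 2.803 and 0.513 TPM to 7.804, 6.24 and 4.22 TPM (1.52 ± 0.34, adjusted p = 0.040), the other spleen subsets spanning 2.13 to 6.98 TPM. Cox6a2 was not called on the median-of-ratios scale (adjusted p = 0.054), nor mt-Atp8 on shares of estimated reads (adjusted p = 0.060). Cox6a2 and mt-Atp8 were called in 1, and Prdx5 and Mt3 in 2, of the 6 fits without a library. Of 23 cholesterol synthesis genes, 0 were called by limma on either scale and 2 were higher at an unadjusted p under 0.05. Over all 11246 genes tested, 1893 were under that p in either direction.

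The secretory machinery gave few calls, though its 3 summed lists were lower in BMPC than in every spleen library on rescaled TPM. The genes called that are described here were not called on the median-of-ratios scale. Of 35 genes of the unfolded protein response and ER chaperones, 2 fell, and 0 were called on the median-of-ratios scale. Manf, a secreted ER stress protein, read 1237, 1309 and 1119.8 TPM in spleen and 716, 843 and 807 TPM in BMPC (-0.63 ± 0.14, adjusted p = 0.038). Selenos, of the ER-associated degradation complex, read 993, 967 and 988 TPM and 722, 720.1 and 763 TPM (-0.42 ± 0.08, adjusted p = 0.017). Hspa5, the chaperone BiP, read 1848, 1877 and 1432 TPM and 1148, 1205 and 1331 TPM, and Calr, calreticulin, 631, 601 and 600.4 TPM and 384, 436 and 531 TPM. Neither of the latter pair, named after their values were seen, was called (adjusted p = 0.18 and 0.054), though their libraries did not overlap. Without 1 library Manf was called in 0 of 6 fits and Selenos in 1. The median of the list was -0.45 (-0.22 on the median-of-ratios scale), with 31 of 35 genes below the all-gene median. In 18 of 35 genes every BMPC library lay below every B220-2NBDG+ library, against 19.1% of all genes. The summed list was 16003, 14128 and 12791 TPM in spleen and 8886, 10460 and 11785 TPM in BMPC. The other spleen subsets spanned 15611 to 18956 TPM.

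Of 46 genes of the translocon and vesicle transport, 1 fell, Ssr1, a subunit of the translocon-associated complex (161, 122 and 132 TPM and 79.01, 94.3 and 101 TPM, -0.59 ± 0.14, adjusted p = 0.050). Of 35 genes of N-glycosylation and 39 of autophagy and lysosome, 0 were called by limma on either scale. At an unadjusted p under 0.05, 9 of each were lower. Over all 11246 genes tested, 1893 were under that p in either direction. The translocon list summed to 23022, 21768 and 23203 TPM in spleen and 17871, 19262 and 20145 TPM in BMPC. The N-glycosylation list summed to 5481, 5076 and 4841 TPM and 3758, 4322 and 4623 TPM. The other spleen subsets spanned 21009 to 24652 TPM and 5190 to 6349 TPM. Of the 46 translocon genes, 38 lay below the all-gene median. Outside the lists and the naming rule, Tmed5, a cargo receptor between ER and Golgi, fell from 129, 148 and 153 TPM to 84.6, 79.4 and 92.98 TPM (-0.73 ± 0.12, adjusted p = 0.0044) and was called in all 6 fits without a library. Ostc, a subunit of the oligosaccharyltransferase, fell from 233, 284 and 282 TPM to 183, 174 and 186 TPM (-0.55 ± 0.12). On the median-of-ratios scale the adjusted p was 0.27 for Ssr1, 0.11 for Tmed5 and 0.44 for Ostc, so that none of the 3 was called.

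Of the 28 genes on the plasma cell identity list, 3 fell and 0 rose on rescaled TPM. They include Cd38, whose spleen means were highest in the B220+ subsets. Besides Cd38 these were Eaf2, a partner of the elongation factor ELL, at 347, 353 and 343 TPM and 216, 225 and 189 TPM (-0.73 ± 0.14, adjusted p = 0.019), and Fkbp2, an ER prolyl isomerase, at 1353, 1364 and 1336 TPM and 755, 785 and 892 TPM (-0.74 ± 0.17, adjusted p = 0.046). In the other spleen subsets Eaf2 spanned 398 to 571 TPM, above the marrow values, and Fkbp2 532 to 1256 TPM, a range that holds them. Of the 3, Cd38 alone was called on the median-of-ratios scale, where Prg2, a granule protein gene named for that call, was called higher (0.73, adjusted p = 0.029), and without 1 library Eaf2 was called in 3 of 6 fits and Fkbp2 in 1. The transcription factor genes that drive the plasma cell state were not called: Prdm1 (Blimp-1) read 60.01, 37.6 and 46.6 TPM in spleen and 16.2, 37.9 and 38.3 TPM in BMPC. Irf4 read 313, 216 and 227 TPM and 107, 229 and 249.9 TPM, and Xbp1 483, 447 and 480.2 TPM and 341, 377 and 451 TPM. BMPC 1 was the lowest of the 6 libraries for each of the 3, and the marrow and spleen ranges of Prdm1, Irf4 and Xbp1 overlapped, with adjusted p of 0.29, 0.47 and 0.54.

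Receptors for the marrow niche were likewise not called. Tnfrsf17, which encodes the APRIL receptor BCMA, read 343, 335 and 328 TPM in spleen and 379, 283 and 279.5 TPM in BMPC (log2 fold change -0.11 ± 0.14, adjusted p = 0.73). Cd28 read 35.6, 28.04 and 26.3 TPM and 32.5, 22.8 and 30.5 TPM, and Cd93, a surface lectin of long-lived plasma cells, 14.4, 11.9 and 10.3 TPM and 12.5, 15.4 and 17.8 TPM. Mcl1, the survival factor that BCMA maintains, read 33.4, 33.04 and 30.1 TPM and 21.7, 28.8 and 36.3 TPM, and its relative Bcl2 16.4, 15.2 and 9.48 TPM and 8.28, 9.24 and 14.9 TPM. The groups overlapped for all 5 genes. Adjusted p was 0.89 for Cd28, 0.48 for Cd93, 0.72 for Mcl1 and 0.54 for Bcl2. For Tnfrsf17, Cd28 and Mcl1 the sign of the change turned with the scaling. In the list of 30 survival receptors and BCL2 family genes, 1 was called, the tetraspanin gene Cd9, which fell from 97.8, 81.6 and 109.9 TPM to 40.4, 43.1 and 63.7 TPM (-0.98 ± 0.18, adjusted p = 0.015).

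Homing genes gave 1 call in 19 chemokine and sphingosine phosphate receptor genes, Rgs1, given above. Cxcr4, the receptor for CXCL12, was at 22.02, 18.5 and 14.3 TPM in spleen and 4.25, 13.2 and 14.8 TPM in BMPC (-0.84 ± 0.34, adjusted p = 0.22), with BMPC 1 far below the rest. S1pr1, which guides exit from tissues into blood, was at 3.67, 6.04 and 1.53 TPM and 1.07, 0.820 and 0.619 TPM (-1.26 ± 0.47, adjusted p = 0.19). Its groups did not overlap, and the other spleen subsets were higher still, at 5.52 to 32.96 TPM. Of 28 integrins and adhesion molecules, 2 fell, Cd9 and Icam2, the latter from 163, 194 and 173 TPM to 134, 109 and 107 TPM (-0.60 ± 0.14, adjusted p = 0.042). Neither was called on the median-of-ratios scale, where F11r, a junctional adhesion molecule named for that call, was called higher (1.85, adjusted p = 0.029). Without 1 library Cd9 was called in 2 of 6 fits and Icam2 in 1.

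The genes of antigen presentation and of the B cell state that were called on rescaled TPM were lower in BMPC. The median of 11 MHC class II genes was -0.80, with 9 of 11 below the all-gene median and 1 called, H2-Ab1, which fell from 429.8, 443 and 314 TPM to 187, 217 and 189 TPM (-0.98 ± 0.20, adjusted p = 0.027). Summed over the list, the groups overlapped, at 23583, 21144 and 20895 TPM in spleen and 17062, 21270 and 20997 TPM in BMPC. The class I gene H2-K1, named after its values were seen, fell from 2193, 1892 and 1737 TPM to 642, 949 and 1232 TPM (-1.09 ± 0.21, adjusted p = 0.018). It lay below all 12 spleen libraries and was called on both scales, with the caution that class I genes share sequence and reads. Of 34 B cell identity genes, 3 fell. The sums of that list overlapped too, at 4339, 3968 and 3659 TPM in spleen and 4602, 3955 and 3738 TPM in BMPC. Pou2f2, the octamer factor Oct-2, read 11.4, 10.6 and 8.28 TPM and 2.49, 3.93 and 5.24 TPM (-1.21 ± 0.22, adjusted p = 0.013). Lyn, a Src-family kinase of the B cell receptor, read 22.3, 23.8 and 20.2 TPM and 11.7, 13.3 and 15.3 TPM (-0.68 ± 0.15, adjusted p = 0.035), and Blnk, the adaptor downstream of it, 301, 251 and 310.4 TPM and 153, 182 and 218 TPM (-0.65 ± 0.15, adjusted p = 0.046). Pou2f2 was the one of these 3 that was called on the median-of-ratios scale (-1.03, adjusted p = 0.0072). On that scale H2-Ab1 was not called (adjusted p = 0.086), and Vpreb3, a B cell gene named for that call, was called higher (1.80, adjusted p = 0.029). Without 1 library Pou2f2 was called in 4 of 6 fits, H2-K1 in 2, and H2-Ab1, Lyn and Blnk in 1 each.

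Among the remaining lists, 2 of 26 immediate early and heat shock genes fell, both co-chaperones of HSP70. Hsph1 read 7.003, 7.95 and 7.06 TPM in spleen and 2.21, 2.34 and 3.16 TPM in BMPC (-1.23 ± 0.25, adjusted p = 0.022), and Dnajb1 19.5, 19.9 and 12.2 TPM and 8.603, 9.101 and 9.32 TPM (-0.83 ± 0.19, adjusted p = 0.046), each called in 1 of the 6 fits without a library. Dnajb1 was not called on the median-of-ratios scale (adjusted p = 0.091), and Hsph1 not on shares of estimated reads (-0.66, adjusted p = 0.17). By limma, 0 genes were called among 39 interferon response genes, 24 genes of the NF-kappaB pathway, 29 MYC targets and ribosome biogenesis genes, or 41 cytosolic ribosomal protein genes, and 0 on the median-of-ratios scale. At an unadjusted p under 0.05 they held 10, 3, 4 and 0 genes in that order, all lower in BMPC. Over all 11246 genes tested, 1893 were under that p in either direction. Among lists given above, 18 of 28 amino acid genes and 8 of 11 MHC class II genes were lower at that p. So were 16 of 35 unfolded protein response genes and 18 of 46 translocon genes, and 0 genes of these 4 lists were higher. Of 44 cell cycle genes 26 were higher and 1 lower.

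**Figure D5:**
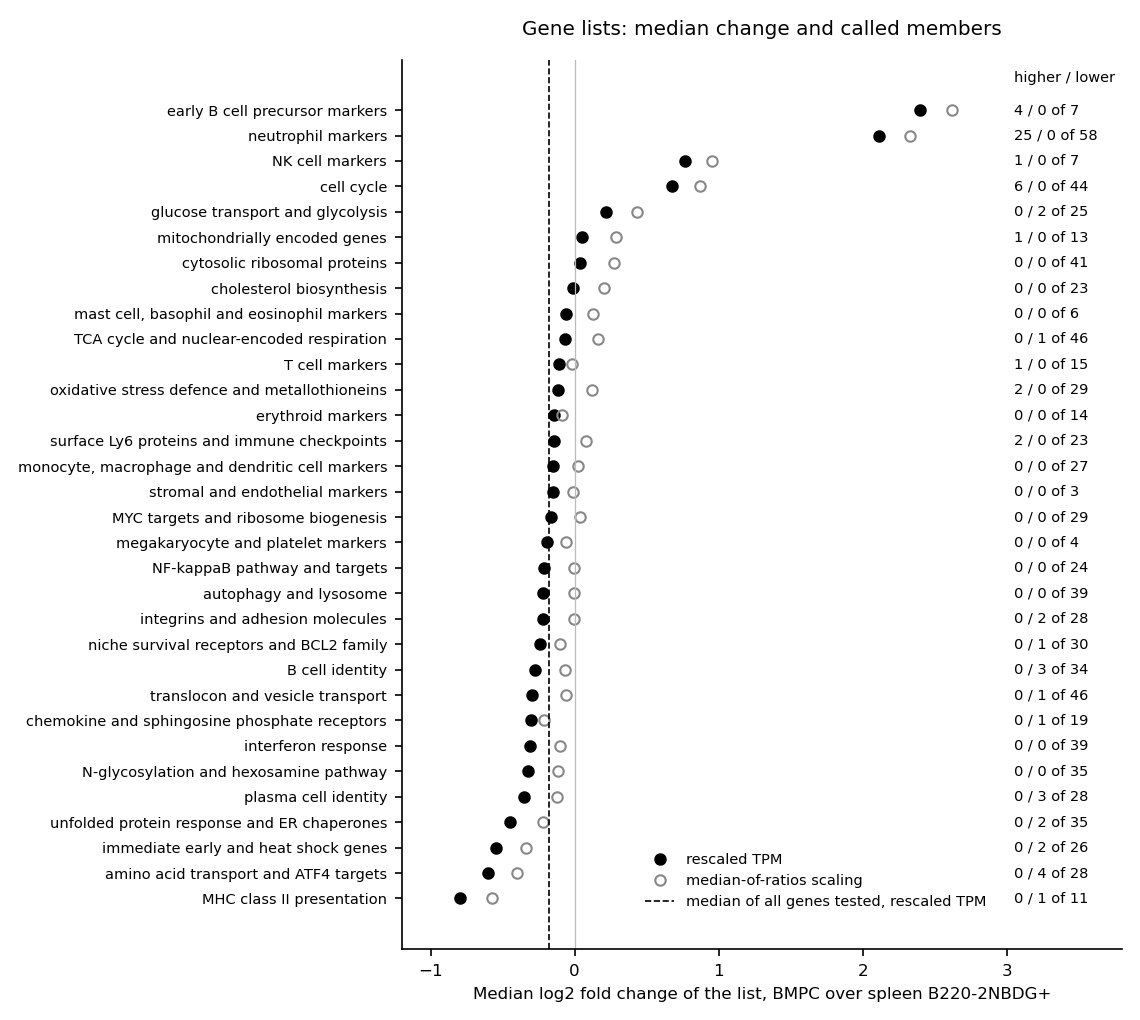
Median log2 fold change of BMPC over spleen B220-2NBDG+ for 32 gene lists on rescaled TPM (filled) and on the median-of-ratios scale (open), with the all-gene median of the former dashed at -0.18 and the members called higher and lower on the right. Neutrophil and early B cell precursor markers lie above 2, the cell cycle at 0.68, and MHC class II genes lowest at -0.80.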

How the data were processed

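RNA-seq values were compared between BMPC and spleen B220-2NBDG+, 3 libraries each. The authors deposited TPM per Ensembl transcript for 63553 transcripts and 15 libraries, quantified with Salmon 0.9.1 on GRCm38.p6 per the submitters' processing notes; other values in the deposited table are transcript lengths and effective lengths in bases, per the file headers. RNA was amplified by SMART-seq and made into Nextera libraries, per the labels' protocols. TPM was summed per gene symbol (22339 genes), 262 immunoglobulin genes found in GENCODE M21 were removed and the rest rescaled to 1000000, so a gene's value depends on what the most abundant genes take. Depth was estimated from the steps of TPM multiplied by effective length; between 33.5% and 37.0% of low values per library lay within 0.05 of a whole read.

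Tests covered the 11246 genes that reached 1 TPM in 3 or more of all 15 libraries, on log2(TPM + 1) with limma 3.58.1 in R 4.3.3: 1 model of 5 group means, the contrast BMPC minus B220-2NBDG+, eBayes with a trend, and Benjamini-Hochberg adjusted p under 0.05 as a call. Fold changes are on that log2 scale and understate low genes. The ± after a log2 fold change is its SE. The p-values measure the spread between these samples. The test was checked on simulated data with independent noise, in which only genes of higher mean were changed. That check did not cover changes in low genes, RNA of other cells or shifts in composition.

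The comparison and the gene lists were chosen with earlier results of these data known. Genes were named by a rule among called genes with non-overlapping groups, leaving out immunoglobulin and T cell receptor genes, unnamed models, pseudogenes and lists of other cells: the 12 highest fold changes with at least 5 TPM in spleen, the 10 highest with under 5 TPM there and at least 10 in BMPC (9 qualified), and the 12 lowest with at least 10 TPM in spleen. Each list also gave its called members (no more than 3) or else its 2 most expressed; added were 18 fixed genes and the 2 most expressed members of each list of other cells; the text names a part of these. Alternatives covered the pseudocount, filter, scaling, libraries in the fit, replicate block, trend and each library left out; 2 more (shares of estimated reads, and removal of Jchain, Slpi and mitochondrial genes) were chosen after seeing the data.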

Additional observations from a re-analysis of the deposited data

How the results depend on the processing

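Of 216 called genes (116 higher, 100 lower), counts stayed within 1.5 times except as follows. Deposited TPM gave 100 calls, 2 of them lower, and the 6 libraries alone 53 (44 higher, 9 lower). Median-of-ratios scaling gave 183 higher and 33 lower, shares of estimated reads 183 higher, a filter of at least 5 TPM 71 higher, no filter 59 lower, and removal of Jchain, Slpi and mitochondrial genes 64 lower. Leaving out each library in turn gave 88 to 297 calls, 67 to 115 higher and 21 to 182 lower. The lowest counts came without spleen replicate 1 and the highest without BMPC 3. With the replicate block there were 335 calls, 163 of them lower. Deviations of same-numbered BMPC and B220-2NBDG+ libraries correlated at -0.19, -0.07 and -0.03. These values leave out the other spleen subsets and cannot show whether same-numbered libraries came from the same mice. On shares of estimated reads, calls also ended for Eaf2, Fkbp2, Icam2, Manf, Selenos, Ssr1, Pfkl and Ostc (adjusted p, limma, 0.13, 0.061, 0.082, 0.077, 0.061, 0.19, 0.056 and 0.084). Signs turned for some uncalled genes. On deposited TPM the log2 fold change was 0.13 for Sdc1, 0.013 for Xbp1, 0.17 for Tnfrsf17, 0.12 for Cd28 and 0.061 for Mcl1. On the median-of-ratios scale it was 0.13 for Sdc1, 0.12 for Tnfrsf17, 0.16 for Cd28 and 0.051 for Mcl1. For Cd28 it was 0.014 on shares of estimated reads and 0.030 without Jchain, Slpi and mitochondrial genes. With a library left out it ranged from -0.45 to 0.30 for Sdc1, -0.17 to 0.078 for Cd28 and -0.35 to 0.00790 for Mcl1. The causes were not tested. Depth limits low genes, since 1 read over 1000 nt was worth 0.107 to 0.173 TPM in these 6 libraries.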
